A study of Homo sapiens with 6 samples.

Results

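The 10 transcripts described here are NANOG, POU5F1, SOX2, SOX9, KLF4, SALL4, LIN28B, BMI1, MSI1 and MSI2, known as regulators of pluripotency and self-renewal. They were chosen by symbol among 62700 gene IDs, not by their values, and each matched 1 gene ID. They were measured by RNA sequencing in OVCAR8, an established human ovarian carcinoma cell line labelled as wild type. The labels give all samples the same handling, overnight serum starvation before treatment, and the groups then differed in what was added. The 3 control libraries came from cells given PBS, and the 3 leptin libraries from cells exposed for 24 h to 100 ng/ml of leptin, a hormone of fat cells. No duration is given for PBS. The study asked which transcripts change downstream of leptin in relation to stemness. All libraries come from 1 cell line, and whether replicates were separate cultures is not in the labels. The p-values therefore reflect only how these libraries spread, and that spread may be technical.

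NANOG, POU5F1 (the gene of OCT4) and SOX2 encode the transcription factors at the core of the network that holds embryonic stem cells in the pluripotent state. SALL4 and KLF4 are transcription factors of the same network, and LIN28B is an RNA-binding protein that blocks maturation of the let-7 microRNAs. BMI1 is a subunit of Polycomb repressive complex 1 (PRC1) that silences genes through chromatin, SOX9 is a transcription factor of progenitor cells in several epithelia, and MSI1 and MSI2 are the Musashi RNA-binding proteins, which regulate translation of bound transcripts. Tumour cells with stem-like behaviour are often described by such genes.

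The labelled cell type was checked on markers. The Müllerian lineage factor gene PAX8 stood between 354 and 370 CPM (counts scaled by library size, with TMM factors) and the keratin gene KRT8 between 2005 and 2430 CPM over the 6 libraries. MUC16 and MSLN, serum markers of ovarian carcinoma, were under 1 CPM in every library, and so was CDH1, at 0 to 0.891 CPM. EPCAM stood between 3.43 and 6.11 CPM and WT1 between 1.96 and 4.01 CPM. KRT7, KRT18 and KRT19 stood above 38 CPM in every library. Of 10 ovarian and epithelial markers 8 were tested, 0 rose and KRT19 fell (log2 fold change -1.40, edgeR adjusted p = 0.000139). Over all tested genes edgeR called 9.81%, 5.71% higher and 4.09% lower. The summed level of the 10 was 3171 to 3456 CPM in controls and 3526 to 3931 CPM with leptin, most of it KRT8. None of 5 immune markers passed the filter (PTPRC and CD3E had 0 counts, and the summed level was 0.0621 to 0.264 CPM in controls and 0 to 0.0577 CPM with leptin). All 6 fibroblast markers were tested and 0 were called in edgeR (3 at an unadjusted p under 0.05, beside 27.6% of all tested genes). The summed level of the 6 was 461 to 657 CPM in controls and 358 to 521 CPM with leptin, most of it COL1A1. Of 4 endothelial markers KDR alone was tested, and it was not called (edgeR adjusted p = 0.134). All leptin libraries of KDR lay below all controls, as for 16.2% of tested genes. The summed level of the 4 markers was 3.16 to 3.98 CPM in controls and 1.74 to 2.998 CPM with leptin. Their part in the results was not tested. The leptin receptor gene LEPR stood at 15.5 ± 0.924 and 11.6 ± 2.86 CPM (n = 3 each; edgeR adjusted p = 0.165, and 0.00598 without leptin replicate 1).

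Leptin replicate 1 differed from leptin replicates 2 and 3 over all genes. The first principal component, which held 49.6% of the variance, placed leptin replicate 1 at -2.15. Controls were at -31.0 to -23.6 there, and the other leptin libraries at 46.3 and 39.6. Leptin replicates 2 and 3 also differed from each other. The second component, with 18.6% of the variance, placed them at 19.6 and -6.13, leptin replicate 1 at -40.0 and controls at 5.95 to 12.9. The median SD of log2 CPM over tested genes was 0.122 in controls and 0.238 with leptin. Total counts of the 6 libraries were 15609425 to 18577775. No label gives a reason to drop leptin replicate 1. For the regulators and the related lists, the counts of calls that it changes are therefore also given without it.

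The regulators fell into a group with almost no transcript and a group that was clearly counted. LIN28B, NANOG, SOX2 and SALL4 had between 0 and 4 fragments in any library and were not tested. The other 6, MSI2, BMI1, KLF4, SOX9, MSI1 and POU5F1, had between 28 and 1170 fragments per library and passed the filter on low counts. Of these 6, MSI1 rose with leptin and none of the 6 fell, by edgeR's quasi-likelihood test with Benjamini-Hochberg adjustment over 15685 tested genes (DESeq2 also called 1 higher and 0 lower). Before adjustment KLF4 and MSI1 had an edgeR p under 0.05, both higher, beside 27.6% of all tested genes in either direction. Over all tested genes edgeR called 9.81%, 5.71% higher and 4.09% lower, and 1 of 6 cannot be set apart from that share. DESeq2 called 14.3% of all tested genes. Groups did not overlap for 2 of the 6, MSI1 (higher) and SOX9 (lower), beside 32.2% of all tested genes. The median log2 fold change of the 6 was 0.04, beside 0.01 over all tested genes. As in any bulk sample, fewer cells expressing a gene and less RNA per cell cannot be told apart.

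**Figure D1:**
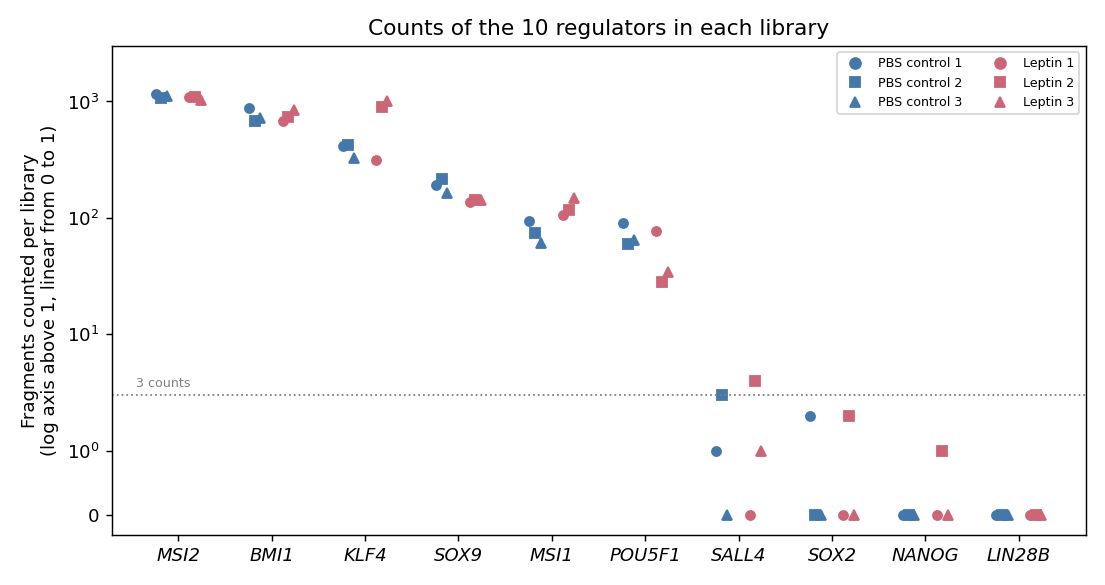
Fragments counted for each regulator in each library (vertical axis logarithmic above 1 and linear from 0 to 1, circles, squares and triangles for replicates 1, 2 and 3, blue for PBS and red for leptin). The 6 genes on the left hold 28 to 1170 fragments per library, and the 4 on the right 0 to 4; the dotted line marks 3 fragments.

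Promoter sequences of 6 of the 10 genes were found in RefSeq (GRCh38.p14), with more than 1 start site for LIN28B, BMI1 and MSI2. No window was at hand for POU5F1, SOX9, SALL4 and MSI1. The 250 bases before the first listed start site are shown, 5′ to 3′ on the gene's strand, for KLF4 and BMI1, which were transcribed in these cells, and for SOX2 and NANOG, which were almost silent, so that the CpG content of an active and a silent promoter can be read side by side. Capitals mark CG dinucleotides.
KLF4: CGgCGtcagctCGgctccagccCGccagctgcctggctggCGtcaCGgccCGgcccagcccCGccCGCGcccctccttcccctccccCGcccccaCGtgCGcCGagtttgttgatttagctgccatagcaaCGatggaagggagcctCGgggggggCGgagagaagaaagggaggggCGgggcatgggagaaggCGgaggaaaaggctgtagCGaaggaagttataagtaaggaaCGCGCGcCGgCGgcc
BMI1: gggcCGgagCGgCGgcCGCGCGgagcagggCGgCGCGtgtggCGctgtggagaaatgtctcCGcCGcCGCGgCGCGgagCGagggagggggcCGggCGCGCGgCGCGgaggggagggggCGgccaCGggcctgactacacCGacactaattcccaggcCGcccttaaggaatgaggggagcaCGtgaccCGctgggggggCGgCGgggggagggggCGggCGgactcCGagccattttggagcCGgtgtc
SOX2: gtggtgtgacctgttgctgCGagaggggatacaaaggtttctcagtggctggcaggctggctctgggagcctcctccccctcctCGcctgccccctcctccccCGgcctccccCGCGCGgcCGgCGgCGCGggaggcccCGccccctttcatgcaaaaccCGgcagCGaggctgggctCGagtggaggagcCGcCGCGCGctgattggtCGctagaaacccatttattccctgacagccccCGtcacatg
NANOG: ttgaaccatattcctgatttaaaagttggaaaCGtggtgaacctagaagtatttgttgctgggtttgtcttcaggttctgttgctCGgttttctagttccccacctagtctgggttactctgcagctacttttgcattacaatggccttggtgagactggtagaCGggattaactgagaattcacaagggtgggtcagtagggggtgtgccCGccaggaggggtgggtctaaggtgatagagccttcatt
These windows lie at chr9:107489770-107490019 (minus strand), chr10:22320849-22321098 (plus strand), chr3:181711675-181711924 (plus strand) and chr12:7789152-7789401 (plus strand). The KLF4 window held 25 CG dinucleotides and the BMI1 window 35. The SOX2 window held 20, and the NANOG window held 4, beside a median of 11 over 35116 promoter windows of this length. Low transcript therefore went with both a CpG-rich window (SOX2) and a CpG-poor one (NANOG). The letters TTCNNNGAA, which read the same on both strands and are the core of sites bound by STAT factors, the factors that the leptin receptor activates, were in 0 of the 9 member windows and in 6.57% of all windows. This says only that these letters are not in these windows, which do not include MSI1, the regulator that was called.

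LIN28B had 0 counts in all 6 libraries, and so did its antisense gene LIN28B-AS1. Taking 3 counts as the limit of a count of 0, the level could be as high as 0.158 to 0.200 CPM in a library, a limit that covers counting error only. NANOG had 1 fragment in leptin replicate 2 and 0 in the other 5 libraries. Its near-identical copy NANOGP8 had 0 counts in all libraries. Reads that map to several places were not counted, so NANOG and POU5F1, which have many copies in the genome, may be undercounted.

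SOX2 had 2 fragments in control replicate 1, 2 in leptin replicate 2 and 0 elsewhere. SALL4 had 1, 3 and 0 fragments in the controls and 0, 4 and 1 with leptin. These 2 genes were thus at the counting limit in both groups, and no difference was detectable at this depth. SALL4 has 5773 exon bases, none of them shared with another gene, and SOX2 has 2512, also unshared, so overlap with other genes did not remove reads there. LIN28A, the paralogue of LIN28B, had 1 fragment in all, so the LIN28 pair was almost uncounted in these cells.

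MSI1 was the only one of the 10 called as changed. It stood at 4.96, 4.60 and 3.66 CPM in control replicates 1, 2 and 3, and at 6.05, 7.75 and 8.73 CPM in leptin replicates 1, 2 and 3. All leptin libraries lay above all controls, a separation that 16.0% of tested genes showed in this direction. The means were 4.404 ± 0.669 and 7.51 ± 1.35 CPM (SD, n = 3 each). The fold change was 1.70 with a 95% interval of 1.22 to 2.37 (log2 fold change 0.77 ± 0.22 SE, edgeR adjusted p = 0.0485). The call rested close to the threshold. It was lost in 5 of 6 leave-outs of 1 library and was kept without leptin replicate 1 (edgeR adjusted p = 0.00457). In the other 5 leave-outs the edgeR adjusted p was 0.104 to 0.207, lowest without leptin replicate 2 and highest without control replicate 3.

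The gene MSI1 occupies 120341330 to 120369164 of chromosome 12 (minus strand of hg38), and none of its 3074 exon bases is shared with another gene. Its longest transcript has 59.2% GC, among the GC-richest of 5 equal bins of tested genes. In that bin 536 genes rose and 18 fell, with a median log2 fold change of 0.30, whereas the bin of lowest GC held 23 that rose and 223 that fell. With each library's GC trend removed, the log2 fold change of MSI1 was 0.57 ± 0.21 (edgeR adjusted p = 0.139), and no regulator was called. The part of GC content in the change of MSI1 was not tested further.

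MSI2, the paralogue of MSI1, was the most abundant of the 10 by counts and did not follow it. It stood at 61.7, 66.0 and 67.5 CPM in the controls and at 63.6, 73.5 and 61.3 CPM with leptin. The groups overlapped. The fold change was 1.02 with a 95% interval of 0.859 to 1.20 (edgeR adjusted p = 0.916). Its sign turned when libraries were scaled by their totals alone or the GC trend was removed. MSI2 has 22248 annotated exon bases on chromosome 17 (57255851 to 57684689, plus strand), so its counts per base were low. Per 1000 exon bases not shared with other genes, MSI2 stood at 2.92 ± 0.136 CPM in controls and MSI1 at 1.43 ± 0.218 CPM.

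By the rule for likeness, the 3 protein-coding genes whose log2 CPM followed MSI1 most closely over the 6 libraries, of 12336 compared, were CPEB2, GARIN5A and C1QL1. Their Pearson correlations with MSI1 were at least 0.997, a description over 6 libraries that includes the difference between PBS and leptin. Since they were picked for following a gene that was itself called higher, that choice largely fixed their direction, and no test of them is given. CPEB2, which encodes a cytoplasmic polyadenylation element-binding protein, stood at 17.1 ± 2.63 CPM in controls and at 29.2 ± 5.34 CPM in leptin libraries (SD, n = 3 each). C1QL1 stood at 128 ± 10.2 and 174 ± 20.4 CPM, a difference whose sign turned with the GC trend removed, and GARIN5A at 1.02 ± 0.261 and 2.55 ± 0.858 CPM.

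**Figure D2:**
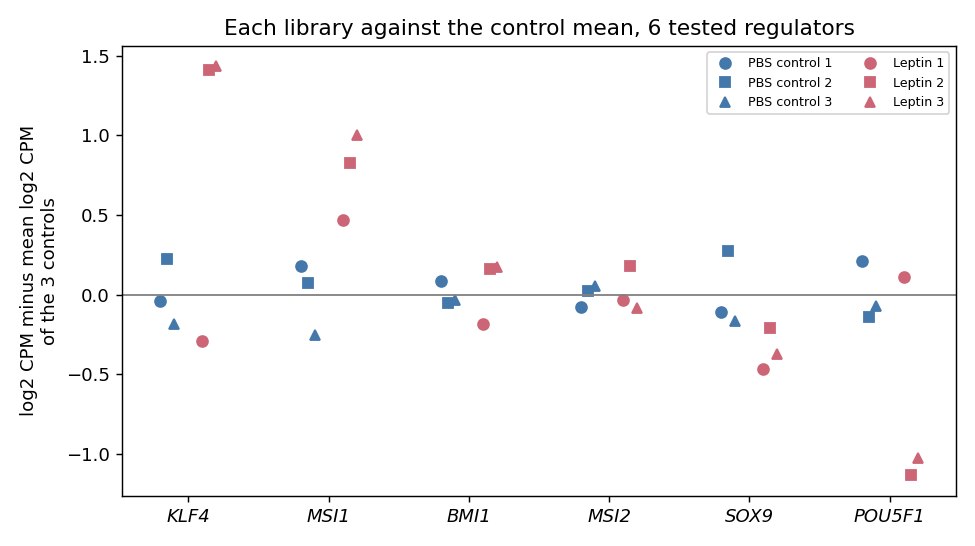
Difference of each library's log2 CPM from the mean of the 3 controls, for the 6 tested regulators (circles, squares and triangles for replicates 1, 2 and 3, blue for PBS and red for leptin). Leptin replicates 2 and 3 stand at 1.41 and 1.43 for KLF4 and at -1.13 and -1.02 for POU5F1, while leptin replicate 1 stands at -0.29 and 0.11.

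KLF4 had the largest mean difference of the 6 tested genes, but it came from 2 of the 3 leptin libraries. KLF4 is also known as a factor of epithelial differentiation. It stood at 21.8, 26.1 and 19.7 CPM in the controls. With leptin it stood at 18.3 CPM in replicate 1, below every control, and at 59.3 and 60.4 CPM in replicates 2 and 3, above every control. The means were 22.5 ± 3.301 and 46.0 ± 24.0 CPM (SD, n = 3 each). The log2 fold change was 1.03 ± 0.42, a fold change of 2.04 with a 95% interval of 1.01 to 4.10, and it did not pass (edgeR adjusted p = 0.174). The SD of KLF4 among leptin libraries on the log2 scale was above that of 97.7% of tested genes.

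POU5F1 showed the same split of the leptin libraries in the other direction. It stood at 4.75, 3.73 and 3.901 CPM in the controls, at 4.44 CPM in leptin replicate 1, within the controls, and at 1.87 and 2.02 CPM in leptin replicates 2 and 3, below every control. The means were 4.12 ± 0.544 and 2.78 ± 1.44 CPM (SD, n = 3 each). The fold change was 0.676 with a 95% interval of 0.406 to 1.13 (edgeR adjusted p = 0.304). POU5F1 lies on chromosome 6 at 31164337 to 31180731 (minus strand), and 248 of its 2870 exon bases are shared with TCF19, a growth-related gene on the opposite strand. TCF19 had 1246 to 2164 fragments per library against 28 to 90 for POU5F1. TCF19 fell from 115 ± 2.74 to 84.0 ± 9.47 CPM (n = 3 each; edgeR adjusted p = 0.0299), a call held in 2 of the 6 leave-outs (up to 0.151, without control replicate 3). Fragments were counted without strand, so reads of TCF19 that run into exons of POU5F1 cannot be told apart from its own. The related gene POU5F1B had 5 fragments in all libraries together.

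Both genes were called when leptin replicate 1 was left out. Without it the log2 fold change was 1.40 ± 0.12 for KLF4 (edgeR adjusted p = 7.36e-07) and -1.09 ± 0.29 for POU5F1 (edgeR adjusted p = 0.00848), and MSI1 also passed, so 2 regulators were called higher and 1 lower. In that fit of 5 libraries 29.6% of all tested genes were called, so the 3 of 6 stand against a much higher background.

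**Figure D3:**
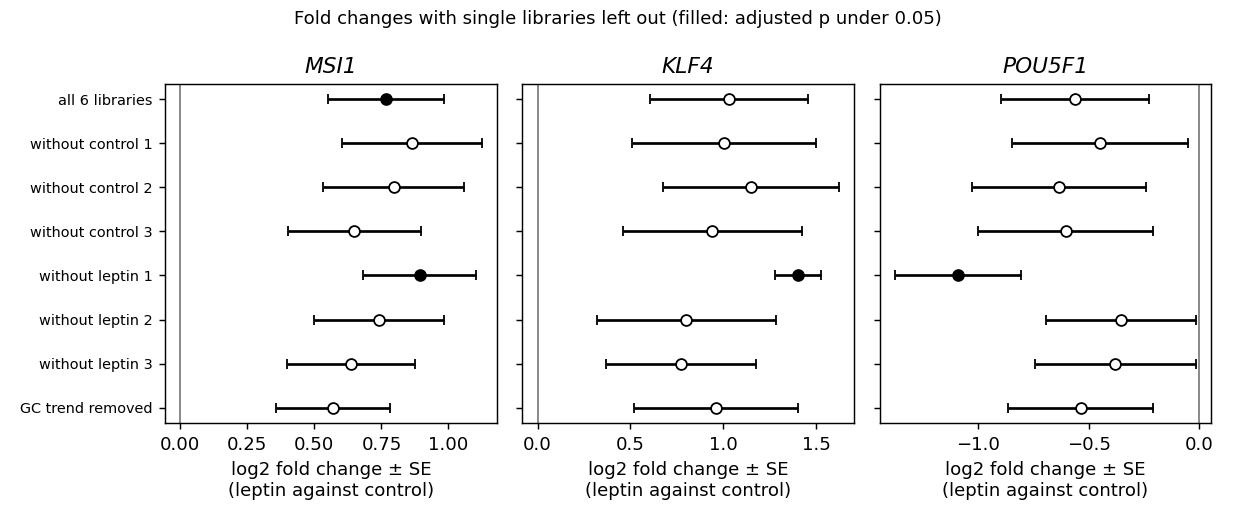
Log2 fold change ± SE (horizontal axis, leptin against control) of MSI1, KLF4 and POU5F1 with all 6 libraries, with each library left out in turn and with the GC trend removed; filled circles have an edgeR adjusted p under 0.05. KLF4 and POU5F1 are filled only without leptin replicate 1 (1.40 and -1.09), and MSI1 with all libraries and without leptin replicate 1.

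SOX9 stood at 10.2, 13.3 and 9.78 CPM in the controls and at 7.96, 9.49 and 8.49 CPM with leptin. All leptin libraries lay below all controls, as for 16.2% of tested genes, though leptin replicate 2 and control replicate 3 were close. The means were 11.1 ± 1.92 and 8.65 ± 0.778 CPM (SD, n = 3 each). The fold change of 0.780, with a 95% interval of 0.598 to 1.02, did not pass (edgeR adjusted p = 0.212), nor did it in any leave-out.

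BMI1 stood at 46.7, 42.6 and 43.0 CPM in the controls and at 38.8, 49.2 and 49.7 CPM with leptin. Leptin replicate 1 was below every control, and leptin replicates 2 and 3 were above. The fold change was 1.04 with a 95% interval of 0.863 to 1.26 (edgeR adjusted p = 0.8). Of the 4395 exon bases of BMI1 on chromosome 10 (22321099 to 22331484, plus strand), 1000 are also exons of the read-through gene COMMD3-BMI1, and fragments there were not counted for either gene. COMMD3-BMI1 itself had 0 counts in all libraries, which does not show its level, since fragments in shared exons were dropped. Over the 3395 unshared bases BMI1 stood at 13.0 ± 0.674 CPM per 1000 bases in controls. This was the highest level per annotated exon length of the 6, followed by KLF4 at 6.82 ± 0.999, MSI2 at 2.92 ± 0.136, SOX9 at 2.82 ± 0.489, POU5F1 at 1.57 ± 0.208 and MSI1 at 1.43 ± 0.218 (SD, n = 3 each). The neighbours MSI2 and SOX9 differed by less than the SD of SOX9, and POU5F1 and MSI1 by less than the SD of either. These lengths hold every annotated exon base not shared with another gene, not the length of the transcripts expressed here. The order therefore depends on the annotation. By CPM in controls, MSI2 (65.1) stood above BMI1 (44.1) and KLF4 (22.5). With leptin the means per 1000 bases were 13.9 ± 7.27 for KLF4, 13.5 ± 1.82 for BMI1, 2.97 ± 0.291 for MSI2, 2.44 ± 0.441 for MSI1, 2.20 ± 0.198 for SOX9 and 1.06 ± 0.550 for POU5F1.

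**Figure D4:**
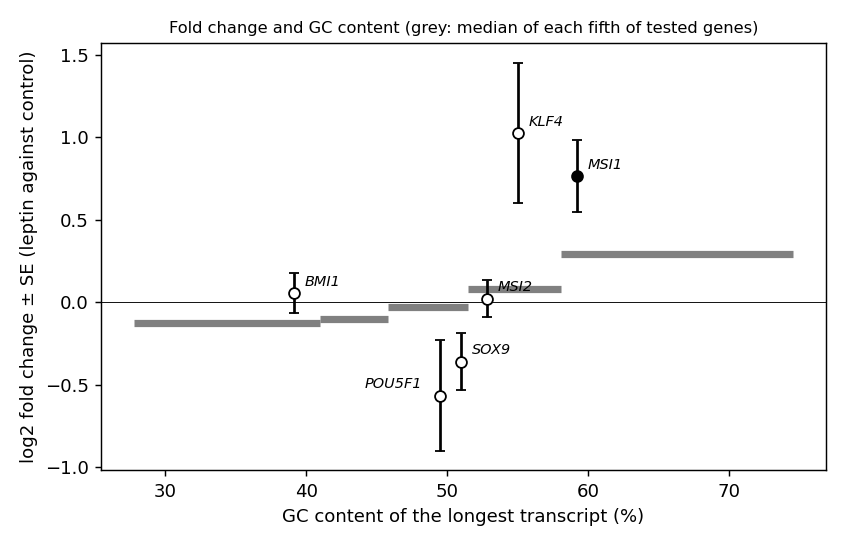
Log2 fold change ± SE of the 6 tested regulators (vertical axis) against the GC content of the longest transcript (horizontal axis, percent); grey bars give the median log2 fold change of tested genes in equal-sized GC bins and span each bin, and the filled circle passed the test. The grey medians go from -0.13 to 0.30, and MSI1, in the bin richest in GC, stands at 0.77.

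Genes that work with the regulators were described from lists by function, beside the 9.81% called (5.71% higher, 4.09% lower) over all tested genes in edgeR. DESeq2 called 14.3% of all tested genes, and 27.6% had an unadjusted edgeR p under 0.05. Without leptin replicate 1, edgeR called 29.6% of all tested genes. Of 25 partners and targets of the pluripotency network, 14 had no count in any library and 5 were tested. Among those without a count were DPPA4, ZFP42, TDGF1, UTF1, GDF3, PRDM14, FGF4 and L1TD1. Of the 5 tested, 2 rose and 0 fell (DESeq2 gave the same counts, and edgeR 2 and 1 without leptin replicate 1). TFCP2L1, a transcription factor of the naive pluripotent state that is also active in kidney epithelium, stood at 2.48, 3.23 and 2.28 CPM in the controls and 6.40, 5.88 and 5.70 CPM with leptin. Its leptin libraries were close to each other and all above the controls (log2 fold change 1.17, edgeR adjusted p = 0.0131). The call of TFCP2L1 held in 3 of the 6 leave-outs (highest edgeR adjusted p 0.0901, without control replicate 1) and after removal of the GC trend. With both, it was lost without control replicates 1, 2 or 3 or leptin replicate 3 (edgeR adjusted p up to 0.108). DNMT3B, a de novo DNA methyltransferase, rose from 63.4 to 99.7 CPM (edgeR adjusted p = 0.0444), although leptin replicate 1 lay within the controls, and this call was kept only without that library and lost in the other 5 leave-outs (up to 0.213, without control replicate 1) and with the GC trend removed, where the log2 fold change went from 0.65 to 0.60 (0.0734).

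Of 14 other genes of PRC1 complexes that are described here all were tested, and 1 rose and 0 fell (DESeq2 gave 2 and 0, and edgeR 3 and 1 without leptin replicate 1). PHC2, a polyhomeotic subunit, rose from 222 to 298 CPM (edgeR adjusted p = 0.0407). The call of PHC2 was lost with the GC trend removed, where its log2 fold change went from 0.42 to 0.21 (edgeR adjusted p = 0.236), and of the 6 leave-outs only that of leptin replicate 1 kept it (edgeR adjusted p up to 0.202, without control replicate 3). RNF2, a catalytic partner of BMI1, averaged 24.9 and 26.1 CPM and was not called (edgeR adjusted p = 0.775). RING1, another catalytic partner, averaged 62.4 and 84.6 CPM and was not called either (edgeR adjusted p = 0.0656). All leptin libraries of RING1 lay above all controls, as for 16.0% of tested genes. Of 11 genes of Polycomb repressive complex 2, which writes the mark that PRC1 can read, 1 rose and 2 fell in edgeR. DESeq2 called 2 higher and 3 lower, and edgeR 2 and 4 without leptin replicate 1. Before adjustment 7 of the 11 had an edgeR p under 0.05, beside 27.6% of all tested genes. Their median log2 fold change was -0.177, with 9 of the 11 negative. Groups did not overlap for 2 (higher) and 6 (lower), beside 16.0% and 16.2% of all tested genes. The list was not tested as a set. The methyltransferase gene EZH2 fell from 26.9 to 19.4 CPM (edgeR adjusted p = 0.0322) and PHF19 from 100 to 76.1 CPM (0.0476), while PHF1 rose from 76.6 to 111 CPM (0.0375). With the GC trend removed, PHF19 alone of these was called, and the log2 fold change went from -0.47 to -0.36 for EZH2 and from 0.53 to 0.31 for PHF1. Of the 6 leave-outs, only that of leptin replicate 1 kept these 3 calls (edgeR adjusted p up to 0.224, for PHF19 without control replicate 3).

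Of 12 tested genes of the LIN28 and let-7 axis 0 changed in edgeR (4 at an unadjusted p under 0.05; DESeq2 called 1 higher). Without leptin replicate 1 edgeR called 2 higher and 3 lower. The let-7 targets HMGA1 and HMGA2 were well counted although LIN28A and LIN28B were not. HMGA1 stood at 855, 895 and 828 CPM in the controls and at 779, 1680 and 1571 CPM in leptin replicates 1, 2 and 3 (edgeR adjusted p = 0.105), the same split of the leptin libraries as for KLF4. Of 9 tested transcripts known as Musashi targets 1 rose and 0 fell (3 and 1 without leptin replicate 1). CDKN1A, the gene of the cell cycle inhibitor p21, stood at 33.4, 35.4 and 30.4 CPM in the controls and at 43.99, 104 and 107 CPM with leptin (edgeR adjusted p = 0.0276). The call of CDKN1A was kept only without leptin replicate 1 (up to 0.110 in the others) and lost with the GC trend removed, where its log2 fold change went from 1.36 to 1.21 (0.0584). NUMB, the best known Musashi target, stood at 218 and 184 CPM and was not called (edgeR adjusted p = 0.148).

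The gene families below are counted with the regulators themselves. Over all tested genes edgeR called 9.81% and DESeq2 14.3%, and 27.6% had an unadjusted edgeR p under 0.05. Of 9 tested SOX genes, SOX12 rose, from 112 ± 3.64 to 217 ± 46.5 CPM (n = 3 each, log2 fold change 0.95, edgeR adjusted p = 0.00573). This call held in 4 of the 6 leave-outs (highest edgeR adjusted p 0.0582, without control replicate 1). It also held after removal of the GC trend, where the log2 fold change was 0.66 (edgeR adjusted p = 0.0166). With both, it was lost without control replicates 1, 2 or 3 or leptin replicate 3 (edgeR adjusted p up to 0.115). No SOX gene fell (1 did without leptin replicate 1). Of 13 tested KLF genes 0 changed in edgeR (3 at an unadjusted p under 0.05; DESeq2 called 1 higher and 1 lower), and 12 had a positive log2 fold change, beside 7965 of the 15685 tested genes. Without leptin replicate 1 edgeR called 3 KLF genes higher and 1 lower. Of the 2 tested SALL genes SALL1 fell, from 47.0 to 36.5 CPM (edgeR adjusted p = 0.0493), a call kept only without leptin replicate 1 (up to 0.187 in the others). SALL1 also lost its call with the GC trend removed, where the log2 fold change went from -0.36 to -0.34 (edgeR adjusted p = 0.0701). The same held with limma-voom (0.0546), with no filter on low counts (0.0836) and with the replicate block (0.0874). Of 6 tested POU genes 0 changed in edgeR (2 at an unadjusted p under 0.05; DESeq2 called 1 higher), and 1 was called higher and 1 lower without leptin replicate 1.

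**Figure D5:**
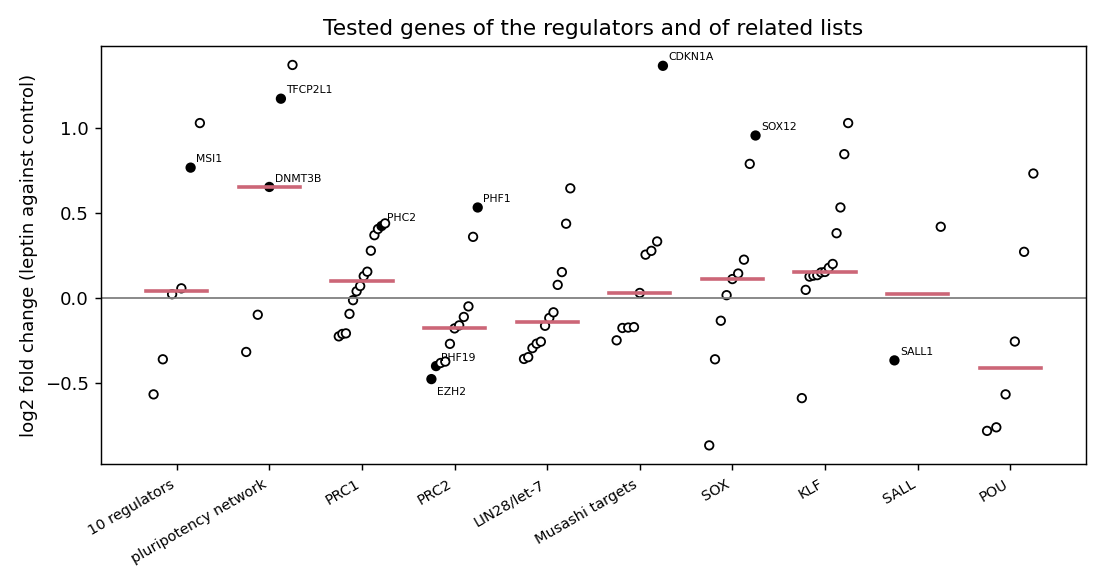
Log2 fold change (vertical axis, leptin against control) of every tested gene of the 10 regulators and of each related list; named filled circles had an edgeR adjusted p under 0.05, and red bars are the medians of the tested genes. TFCP2L1, SOX12 and CDKN1A stand between 0.95 and 1.36, and EZH2 at -0.47.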

How the data were processed

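RNA from OVCAR8 cells was sequenced as paired ends from directional libraries, per the labels' protocols, in 3 control and 3 leptin libraries. Each library has a deposited table of raw counts. These are whole fragments that featureCounts 2.0.1 assigned to GENCODE release 44 exons and summed by gene, per the file headers, which set no option for strand, multi-mapping or overlapping genes. Aligner and build are HISAT2 2.0.5 and hg38 per the submitters' processing notes, which also list featureCounts 1.5.0-p3 and DESeq2. All 62700 IDs matched a symbol. Total counts per library were 15609425 to 18577775; the 37 mitochondrial genes had 0 counts.

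The comparison used edgeR 4.0.16 under R 4.3.3 (filterByExpr with minimum count 10 and minimum total 15, TMM, robust quasi-likelihood, Benjamini-Hochberg over 15685 genes, threshold 0.05). It was also run on simulated counts that had the same dispersion in both groups. In the data the median SD of log2 CPM over tested genes was 0.122 in controls and 0.238 with leptin. The simulated run does not cover that unequal spread. Standard errors follow from the F statistic and 95% intervals from its degrees of freedom. The regulators, lists and tests were chosen with earlier results of these data known. A gene of the PRC1 list is not reported here and was left out of that list's counts. Named genes are the 10 regulators, genes overlapping their exons, in each list the called genes of smallest adjusted p, at most 3, and the 3 most correlated with a called regulator. Others named (RNF2, RING1, HMGA1, HMGA2, NUMB, LIN28A and uncounted genes) were chosen after their values were seen. Alternatives were DESeq2 1.42.0, limma-voom (limma 3.58.1), other scalings and filters, a replicate block, removal of the GC trend (lowess, span 0.3) and leaving out each library. Figures used Python 3.11.15 and matplotlib 3.10.9.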

Additional observations from a re-analysis of the deposited data

How the results depend on the processing

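Removal of the GC trend together with leaving out 1 library was chosen after seeing the data. The count of 1 regulator called higher became 0 with limma-voom, when scaled by library totals alone, with 0.01 as the threshold, with the replicate block, after removal of the GC trend and with both of the latter. Without single libraries the regulators called higher ranged from 0 to 2 and those called lower from 0 to 1. With the GC trend also removed they ranged from 0 to 3 and from 0 to 1, the highest counts in each case without leptin replicate 1. The 3 were KLF4, MSI1 and BMI1, in a fit that called 24.9% of all tested genes. The 1538 genes called over the whole table became 2437 with no filter on low counts, 274 with 0.01 as the threshold, 868 after removal of the GC trend and 942 with the replicate block and the GC trend removed. Without single libraries they ranged from 115 to 4761, and, with the GC trend also removed, were 48, 87 and 56 when controls 1, 2 or 3 were left out, against 4012, 427 and 85 when leptin 1, 2 or 3 were. The replicate block gave 1303 called genes and an edgeR adjusted p of 0.0749 for MSI1. Same-numbered libraries did not deviate together (correlations of deviations from the group means of -0.05, 0.01 and -0.11), so the numbers were not taken to pair the samples. The split of called genes, 896 higher and 642 lower, was 736 and 768 with library totals alone and 426 and 442 with the GC trend removed. KLF4, POU5F1 and SOX9 kept their direction in all alternatives run. The log2 fold change of MSI2 reversed to -0.023 with library totals alone, -0.0038 with the GC trend removed and -0.0085 with the replicate block as well, and ranged from -0.0601 to 0.0695 without single libraries; with the GC trend also removed it was -0.032 without control replicate 1 and -0.096 without leptin replicate 2. That of BMI1 ranged from -0.0092 to 0.16 without single libraries. With the GC trend also removed, BMI1 stood at 0.30 without leptin replicate 1 (edgeR adjusted p = 0.035). C1QL1 reversed to -0.12 with the GC trend removed and to -0.13 with the block as well, and to -0.063, -0.16, -0.15, -0.22, -0.093 and -0.072 with the GC trend removed and control replicates 1, 2, 3 or leptin replicates 1, 2, 3 left out. Summing BMI1 with its read-through gene changed nothing, since that gene had 0 counts. Fragments in shared exons were not counted for either gene, so this sum could not show a part of the read-through gene. The cause of these shifts was not tested; leave-outs have fewer libraries. With no filter on low counts, SOX2, NANOG and SALL4 could be fitted and were not called (edgeR adjusted p = 0.993, 0.632 and 0.922); these rest on at most 4 fragments per library, and LIN28B had none.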
